A study of Mus musculus with 14 samples.

Results

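Gene expression in the anterior cingulate cortex, a midline region of the frontal cortex, was compared between naive mice of the inbred strains AKR/J (AKR) and C57BL/6NJ (B6N). All 4 AKR and all 4 B6N libraries labelled naive were used, 8 of the 14 libraries of the series, and every gene that passed an expression filter was tested, 17645 of 53465 gene identifiers. The other 6 libraries, 3 of each strain, were taken after observational fear conditioning (OFL), a protocol in which an animal observes a companion being shocked. They entered only a test of whether a strain difference depended on condition. RNA was total RNA of cortical tissue, so fewer cells of a type and less RNA per cell cannot be told apart. The labels name no transgene, drug or surgery in any group, and give no age, sex or time of day. They do not say whether a library is 1 animal or a pool, so a p-value here reflects library-to-library spread alone, part or all of which could be technical. All differences below are AKR minus B6N on the log2 scale.

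AKR and B6N are unrelated inbred lines, and mice of a line are genetically near identical. B6N is a substrain of C57BL/6, the strain of the mouse reference genome, and AKR was bred for a high rate of leukaemia. The anterior cingulate cortex takes part in the emotional side of pain and in learning fear by watching others. Some genes of cortical tissue follow an animal's state: corticosterone, the main stress hormone of rodents, induces a set of genes through the glucocorticoid receptor, unfolded protein in the endoplasmic reticulum (ER) induces its chaperones, and neuronal firing and the daily clock have their own target genes.

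Of the genes tested, 3236 (18.3%) were called higher and 3432 (19.5%) lower in AKR, 37.8% in all, where called means an edgeR quasi-likelihood adjusted p under 0.05. Most differences were small: 3334 of the called genes (50%) differed by less than 1.25-fold, and the median absolute difference of called genes was 0.32. Calls of at least 2-fold covered 4.6% of genes, with 345 higher (1.96%) and 466 lower (2.64%), and calls of at least 8-fold covered 91 genes higher and 90 lower. The values of the 4 AKR and 4 B6N libraries did not overlap for 34.7% of genes.

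**Figure D1:**
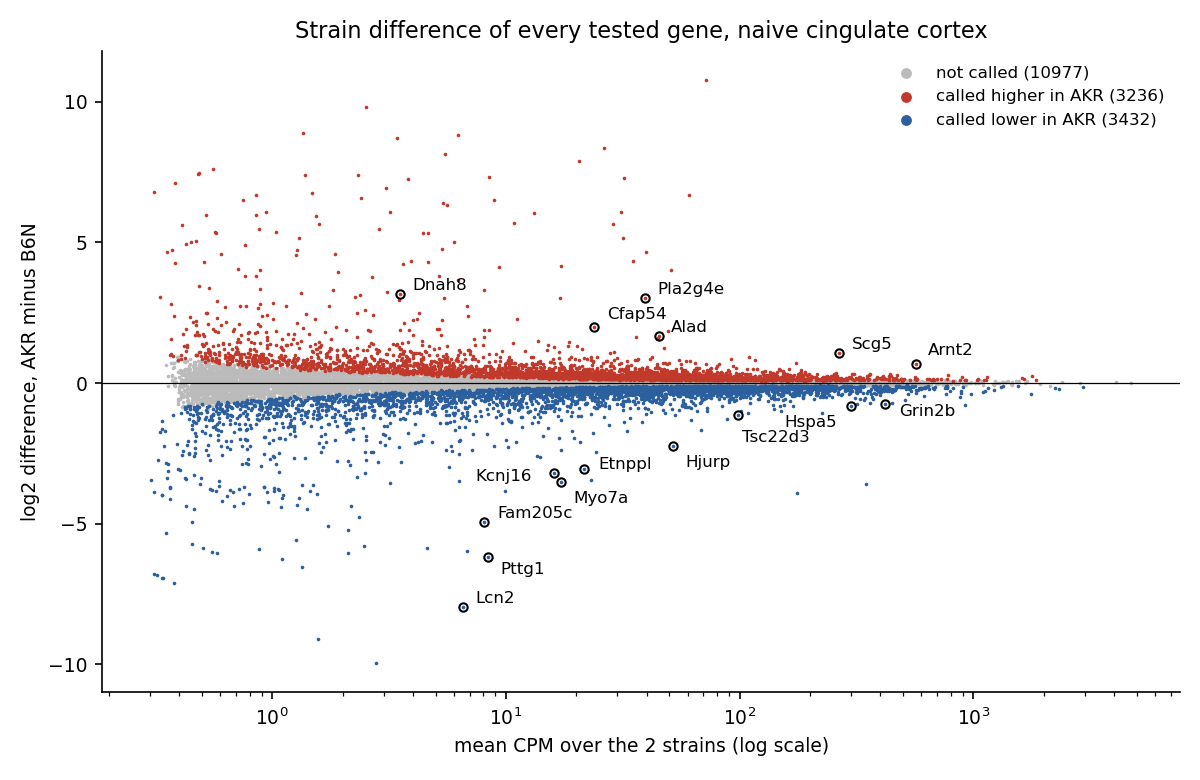
Log2 difference (AKR minus B6N, vertical axis) against the mean CPM (counts scaled to a common library size) over both strains (log scale) for every gene tested, with genes called higher in AKR in red, genes called lower in blue and the rest in grey. Large differences sat on both sides, with Pla2g4e at 3.03 and Lcn2 at -7.97, while highly counted genes such as Arnt2 (0.68) and Grin2b (-0.74) differed by less.

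The 8 libraries held 19073921 to 25780227 counts. Strain separated them along the first principal component, which held 75.3% of the variance, and the common biological coefficient of variation was 0.0446. Markers of neighbouring tissue were low: of 7 choroid plexus markers only 2 passed the filter, and Otx2, which defines that tissue, stood at 0.118 CPM or less in every library. Xist, which marks cells with an inactive X chromosome, stood at 0.118 to 0.269 CPM, and the Y-linked Eif2s3y at 42.1 to 53.6 CPM. AKR library 4 stood apart in genes that follow recent firing. Fos was at 48.9, 64.5, 77.1 and 15.9 CPM in the AKR libraries and between 42.9 and 60.7 CPM in B6N. Arc was at 431.6, 591.2, 604.4 and 169.5 CPM in AKR, so library 4 was the lowest of all 8 for both genes. Without that library Fos was called higher in AKR (0.38, adjusted p = 0.0211), and with it Fos was not (0.07, adjusted p = 0.86).

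Chaperones and folding enzymes of the ER were lower in AKR. Of 23 members tested, 19 were called lower in AKR and 1 higher, against 19.5% and 18.3% of all genes, and the libraries of the strains did not overlap for 19. The median difference of the list was -0.43, against 0.01 over all genes. The list was assembled with earlier results of these data known. Promoters of several of its members carry the ER stress response element, the sequence bound by the factors ATF6 and NF-Y, and the 250 bases before the start of 3 of them are shown with the element in capitals, from RefSeq on GRCm38.p6. Hspa5 (BiP, the main chaperone of the ER) is on the plus strand at chr2:34771840-34772089, Dnajc3 (P58IPK, a co-chaperone of BiP) on the plus strand at chr14:118937682-118937931 and Hsp90b1 (GRP94, the ER form of HSP90) on the minus strand at chr10:86705445-86705694.
Hspa5: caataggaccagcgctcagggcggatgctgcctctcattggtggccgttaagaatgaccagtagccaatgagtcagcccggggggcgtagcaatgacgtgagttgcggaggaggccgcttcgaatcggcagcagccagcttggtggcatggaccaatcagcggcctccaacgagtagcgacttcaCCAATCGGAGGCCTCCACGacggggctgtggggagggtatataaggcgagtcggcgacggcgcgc
Dnajc3: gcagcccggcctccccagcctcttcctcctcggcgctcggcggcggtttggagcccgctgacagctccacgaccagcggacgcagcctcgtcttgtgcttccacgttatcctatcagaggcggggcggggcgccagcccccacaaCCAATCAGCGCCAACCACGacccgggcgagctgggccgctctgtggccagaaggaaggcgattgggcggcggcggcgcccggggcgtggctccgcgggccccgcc
Hsp90b1: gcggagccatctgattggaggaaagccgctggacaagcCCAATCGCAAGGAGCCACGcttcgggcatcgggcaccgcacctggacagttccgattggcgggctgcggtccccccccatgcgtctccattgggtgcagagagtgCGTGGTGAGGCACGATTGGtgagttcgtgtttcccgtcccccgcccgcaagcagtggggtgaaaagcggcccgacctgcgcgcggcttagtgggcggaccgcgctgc

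The element was searched on both strands as the letters CCAAT and CCACG with any 9 bases between them, and overlaps neither of the other motifs searched. It was found in 37 of 32851 promoters (0.113%) and in 7 of the 20 ER list genes that have a promoter in the table (35%). In the printed windows its leftmost base lies 65 bases before the start of Hspa5, 105 before that of Dnajc3, and 212 and 107 before that of Hsp90b1, where the second match is on the other strand. The other 4 genes with a match were Calr, Canx, Creld2 and Pdia6. All 7 genes with a match were called lower, with a median difference of -0.51 and a range of -0.82 to -0.25. Of the 13 without a match, 9 were called lower, with a median of -0.31 and a range of -1.05 to 0.28. A match describes letters and is no evidence that a factor was bound in this tissue.

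Hspa5 stood at 224.2, 225.4, 207.3 and 208.7 CPM in the AKR libraries and at 436.2, 327.6, 422.3 and 346.8 CPM in B6N. The groups did not overlap, and the difference was -0.82 (SE 0.071, adjusted p = 7.81e-08). Pdia4, a disulfide isomerase that helps proteins fold, stood at 29.7, 28.2, 26.5 and 28.2 CPM in AKR and 59.6, 43.0, 61.2 and 48.4 CPM in B6N. Every B6N library was again above every AKR library, and the difference was -0.91 (SE 0.089, adjusted p = 3.21e-07). Sdf2l1, a partner of BiP, differed by -1.02 (SE 0.117) from a level of 7.73 to 8.46 CPM in AKR and 12.7 to 19.8 CPM in B6N. Dnajc3 was at 49.1 to 54.2 CPM in AKR and 78.2 to 88.7 CPM in B6N, a difference of -0.67 (SE 0.048, adjusted p = 8.41e-09).

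Smaller differences ran through the rest of the list. Calr, a calcium-binding chaperone of the ER lumen, differed by -0.53, and its membrane-bound relative Canx by -0.25. Hyou1, an exchange factor for BiP, differed by -0.43, Creld2 by -0.51, and the disulfide isomerases Pdia6, Pdia3 and P4hb by -0.44, -0.31 and -0.15. Among genes that regulate the response or degrade misfolded protein, Xbp1 (-0.45), Herpud1 (-0.46) and Sel1l (-0.23) were called lower. Atf6 was called lower at -0.12, and not at -0.09 to -0.11 under library size scaling or without AKR library 2 or 4 or B6N library 1 or 3. Trib3 was called lower at -1.05 from a level under 1 CPM in every library. Chac1, a target of the ATF4 branch, was the member called higher, at 0.28, and was not called at 0.19 to 0.28 without AKR library 2 or 4 or without any B6N library, nor by DESeq2. Atf4 (0.03) and Ddit3 (-0.11) were not called. Dnajb9 was not called (-0.10) except without AKR library 3 (-0.13). Manf (-0.63) and Hsp90b1 (-0.43) were called lower but share 7.25% and 12.3% of their 31-base stretches with other genes, so their counts are uncertain, and without members sharing over 5% the count was 17 lower and 1 higher of 19.

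The B6N libraries were not alike in these genes. Libraries 1 and 3 were the highest pair of the 4 B6N libraries for 19 of the 23 ER genes (82.6%), against 21.3% of all tested genes, so the excess of B6N over AKR was larger in that pair. These 2 libraries were also the closest pair over all genes, with a chi-square per gene of 1.905 between their counts against 2.355 to 6.155 for the other pairs within a strain. The same pair led in 14 of 20 heat shock genes (70%) and 11 of 19 late activity genes (57.9%), and in 7 of 25 glucocorticoid-induced genes (28%). What distinguishes the 2 pairs was not tested. Leaving out each library in turn left 18 to 20 ER genes called lower.

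**Figure D2:**
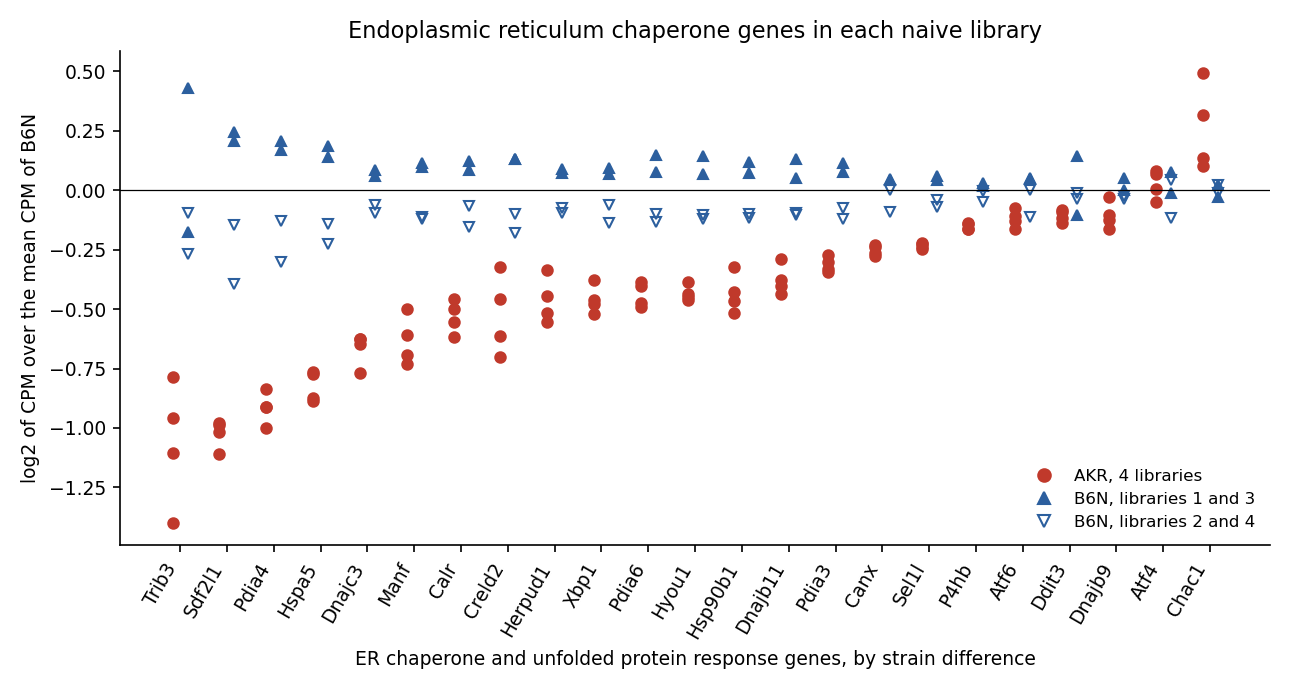
Log2 of each library's CPM over the B6N mean, for the 23 ER chaperone and unfolded protein response genes, ordered by strain difference, with AKR libraries in red and B6N libraries in blue (filled for libraries 1 and 3, open for 2 and 4). The AKR points lie below the B6N points for most genes, and libraries 1 and 3 form the upper pair of B6N points for 19 of the 23.

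Genes induced by corticosterone were also lower in AKR. Of 25 members tested, 21 were called lower and none higher (19.5% and 18.3% of all genes), with a median difference of -0.59, and the groups did not overlap for 21. Tsc22d3 (GILZ, which carries part of the anti-inflammatory action of glucocorticoids) stood at 61.0, 61.7, 59.9 and 63.0 CPM in AKR and at 128.1, 134.4, 148.6 and 132.3 CPM in B6N. All 4 B6N libraries were above all AKR libraries, and the difference was -1.14 (SE 0.044, adjusted p = 1.55e-12). Fkbp5, a co-chaperone that dampens the glucocorticoid receptor, stood at 32.9, 30.6, 34.3 and 34.9 CPM in AKR and at 78.7, 61.7, 83.9 and 67.8 CPM in B6N, a difference of -1.14 (SE 0.078, adjusted p = 3.81e-09). Plin4, a lipid droplet protein, differed by -1.70 (SE 0.128), with AKR at 7.68 to 9.96 CPM and B6N at 21.7 to 37.2 CPM. Map3k6, a stress-activated kinase, differed by -2.04 (SE 0.103), with AKR at 3.51 to 4.4 CPM and B6N at 14.2 to 18.5 CPM.

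Lcn2, a secreted iron-trafficking protein of the acute phase, was nearly absent from AKR. It stood at 0.0492, 0.0423, 0.0519 and 0.0432 CPM in AKR, which is 4 counts in all, and at 18.1, 7.04, 22.5 and 4.71 CPM in B6N, which is 1184 counts. The B6N libraries differed among themselves, with 1 and 3 again the higher pair, and the fitted difference was -7.97 (SE 0.827, adjusted p = 7.18e-07). Il1r1, the interleukin 1 receptor, differed by -1.41, and Ddit4, an inhibitor of mTOR signalling, by -0.70. Nfkbia, an inhibitor of NF-kappa-B, differed by -0.60, the hypoxia-related factor Hif3a by -0.59, the gap junction gene Gjb6 by -0.57 and the phagocytic receptor Mertk by -0.55. Arrdc2 (-0.63), Arl4d (-0.41, but not called by DESeq2 or, at -0.36, without AKR library 1), Mt1 (-0.36), Klf9 (-0.25), Zbtb16 (-0.24) and Errfi1 (-0.20) were called lower too. Per1 (0.03), Pdk4 (0.06) and Angptl4 (-0.20) were not called. Cdkn1a (-1.10, 9.78% shared), Sult1a1 (-1.05, 11.4%) and Cebpd (14.2%) were called lower with counts made uncertain by shared stretches, and 18 of the 21 members sharing at most 5% were called lower.

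The receptors themselves differed little. Nr3c1, the glucocorticoid receptor, differed by 0.10 (adjusted p = 0.0423) and Nr3c2, the mineralocorticoid receptor, by 0.14 (adjusted p = 0.0431). Neither call held with DESeq2 (adjusted p = 0.0615 and 0.0723). Nr3c1 also lost it in the joint fit, without a count filter and without AKR library 1, 3 or 4 or B6N library 1, 3 or 4 (0.08 to 0.11), and Nr3c2 among genes sharing at most 5% and without AKR library 3 or 4 or B6N library 1 or 4 (0.11 to 0.14). In the corticotropin-releasing hormone system, the peptide gene Crh differed by -0.41, its receptor gene Crhr1 by 0.33 and its binding protein gene Crhbp by 0.38. The palindromic glucocorticoid response element, AGAACA and TGTTCT with any 3 bases between them, was searched on both strands and found in 3 of 32851 promoters (0.00913%), 1 of them that of Sgk1, a kinase that regulates ion transport. Its 250 bases before the start are on the plus strand at chr10:21993640-21993889 of GRCm38.p6, from RefSeq, with the element in capitals 189 bases before the start.
Sgk1: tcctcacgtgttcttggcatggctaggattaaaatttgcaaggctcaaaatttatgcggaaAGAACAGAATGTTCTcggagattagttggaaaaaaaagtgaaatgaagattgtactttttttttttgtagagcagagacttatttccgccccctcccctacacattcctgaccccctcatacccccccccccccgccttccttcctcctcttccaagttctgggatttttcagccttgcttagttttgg
Sgk1 stood at 58.4, 67.1, 72.1 and 61.1 CPM in AKR and at 74.6, 104.5, 81.1 and 76.4 CPM in B6N. The groups did not overlap, by a narrow margin, and the difference was -0.38 (SE 0.087, adjusted p = 0.00224).

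Heat shock genes of the cytosol and mitochondria followed with smaller differences. Of 20 tested, 15 were called lower in AKR and none higher (19.5% and 18.3% of all genes), with a median of -0.23. Hsph1, an HSP110 exchange factor, stood at 285.7, 290.1, 288.7 and 258.2 CPM in AKR and at 458.4, 376.7, 432.3 and 373.0 CPM in B6N, a difference of -0.55 (SE 0.058, adjusted p = 1e-06). The groups did not overlap, with library 4 the lowest of AKR. Dnajb1, an HSP40 co-chaperone, differed by -0.45, the HSP90-binding Chordc1 by -0.44, and the HSP110 relatives Hspa4 and Hspa4l by -0.16 each. The factors Hsf1 (-0.02) and Hsf2 (0.01), which switch the response on, were not called, nor was Bag3 (-0.07). Shared stretches exceed 5% in 12 of the 20, among them Hspa8 (-0.77, 44.8% shared), Hspb1 (-0.92, 55.4%) and Hspa1b (-0.91, 68.1%), and of the 8 members that share less, 5 were called lower. The heat shock element, GAA, TTC and GAA with any 2 bases between each, was searched on both strands and found in 0.466% of promoters and in 2 of the 15 list genes that have one in the table (13.3%). Those 2, Hspd1 and Hspe1, lie side by side on opposite strands with overlapping windows that hold the same matches, so they count a single stretch of DNA.

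Late activity genes, which rise hours after neurons fire, were lower in AKR for 11 of 19 members, with none higher and a median of -0.29. Over all genes 19.5% were called lower and 18.3% higher. Homer1, a scaffold of the postsynaptic density, stood at 302.0, 278.8, 250.3 and 222.2 CPM in AKR and at 432.4, 373.2, 416.1 and 355.9 CPM in B6N. No AKR library reached the lowest B6N library, and the difference was -0.58 (SE 0.075, adjusted p = 9.09e-06). The prostaglandin synthase gene Ptgs2 differed by -0.63, the prohormone convertase gene Pcsk1 by -0.59, the activin subunit gene Inhba by -0.52 and the pentraxins Nptx2 and Nptx1 by -0.42 and -0.29. Sorcs3 (-0.30) and Scg2 (-0.17) were also called lower. Immediate early genes, which rise within minutes, were called lower for 7 of 26 and higher for none (26.9%, near the share over all genes), with a median of -0.04. Fos (0.07 with AKR library 4 and 0.38, called, without it) and Arc (-0.07, adjusted p = 0.85) were not called with all libraries, while Egr3 (-0.40) and Maff (-1.27) were called lower.

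Genes of the oxygen and glucose response were called lower for 8 of 14 and higher for 1, against 19.5% and 18.3% of all genes. Pdk1, which limits entry of pyruvate into mitochondria, stood at 45.3, 48.4, 49.6 and 49.9 CPM in AKR and at 76.0, 74.2, 74.0 and 79.5 CPM in B6N, a difference of -0.65 (SE 0.042, adjusted p = 1.81e-09) with no overlap. Slc2a1, the glucose transporter of the blood-brain barrier, differed by -0.52 (SE 0.05), and the collagen hydroxylase gene P4ha1 by -0.49. Egln3, a sensor of oxygen, was the member called higher, at 0.31.

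Clock genes were called lower more often than higher. Of 20 tested, 7 were called lower and 3 higher in AKR, against 19.5% and 18.3% of all genes, with a median of -0.02. The share called higher was thus no more than that over all genes. Of the 15 members sharing at most 5%, 7 were lower and none higher. Arntl (BMAL1, the positive arm of the clock) stood at 34.0, 31.7, 33.4 and 29.0 CPM in AKR and at 44.0, 40.4, 45.8 and 39.0 CPM in B6N, a difference of -0.40 (SE 0.06, adjusted p = 3.99e-05). Per2, of the negative arm, stood at 95.2, 98.4, 90.4 and 86.3 CPM in AKR and at 124.3, 112.6, 121.8 and 111.6 CPM in B6N, a difference of -0.34 (SE 0.046, adjusted p = 1.49e-05). Neither gene overlapped between strains. Clock (-0.15), Csnk1e (-0.13) and Nfil3 (-0.38) were lower too. Cry1 was called at -0.20, but not without AKR library 3 (-0.15). Hlf was called at -0.09, but not under library size or upper quartile scaling, without a count filter, in the joint fit, or without AKR library 2, 3 or 4 or B6N library 1, 2 or 4 (-0.10 to -0.07). The 3 called higher were Dbp (0.54, 16.9% shared), Nr1d1 (0.39, 7.85%) and Ciart (0.49, 20.8%), all with shared stretches over 5%. Per3 (-0.07), Cry2 (0.05) and Tef (-0.01) were not called. The labels give no time of day, so time of sampling and strain cannot be told apart in these genes.

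Microglial genes split within the cell type. Of 20 markers tested, 8 were called higher and 6 lower in AKR (18.3% and 19.5% of all genes), with a median of 0.05. Their summed level overlapped between strains, at 495.0 to 579.1 CPM in AKR and 501.0 to 559.3 CPM in B6N. P2ry12, a receptor for ATP products that guides microglial processes, stood at 62.2, 48.5, 51.2 and 51.4 CPM in AKR and at 28.7, 27.5, 28.3 and 32.4 CPM in B6N, a difference of 0.86 (SE 0.07, adjusted p = 3.54e-08). Aif1, which encodes the microglial stain IBA1, was at 11 to 12.2 CPM in AKR and 4.17 to 4.97 CPM in B6N, a difference of 1.35 (SE 0.085). Fcrls, an Fc receptor-like protein of resident microglia, ran the other way at 4.48, 3.59, 3.53 and 3.97 CPM in AKR and 21.3, 22.7, 26.3 and 26.2 CPM in B6N, a difference of -2.63 (SE 0.097). None of the 3 overlapped between strains.

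Others followed in each direction. The fructose transporter gene Slc2a5 (0.86), the receptors P2ry13 (0.74) and Gpr34 (0.72), the identity factor Sall1 (0.34), the lipid receptor Trem2 (0.32) and the fractalkine receptor Cx3cr1 (0.23) were higher. The adaptor Tyrobp (-0.53), Olfml3 (-0.39) and the protease Ctss (-0.26) were lower, and Tmem119 (0.09) was not called. Siglech was not called (-0.17) except without AKR library 1 (-0.23) or B6N library 1 (-0.21). The C1q complement subunits, which microglia make and which tag synapses for removal, were all lower. C1qb stood at 19.5, 17.9, 16.4 and 17.4 CPM in AKR and at 47.5, 41.6, 49.6 and 46.7 CPM in B6N, a difference of -1.38 (SE 0.062, adjusted p = 1.45e-11). C1qc (-1.21) and C1qa (-0.76) followed, and the complement receptors C5ar1 (-2.97) and C3ar1 (-1.22) were lower from levels under 3 CPM. In the complement list as a whole 8 of 14 were called lower and 1 higher, against 19.5% and 18.3% of all genes. The member called higher was C4a, at 1.12 with 43.3% of it shared.

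**Figure D3:**
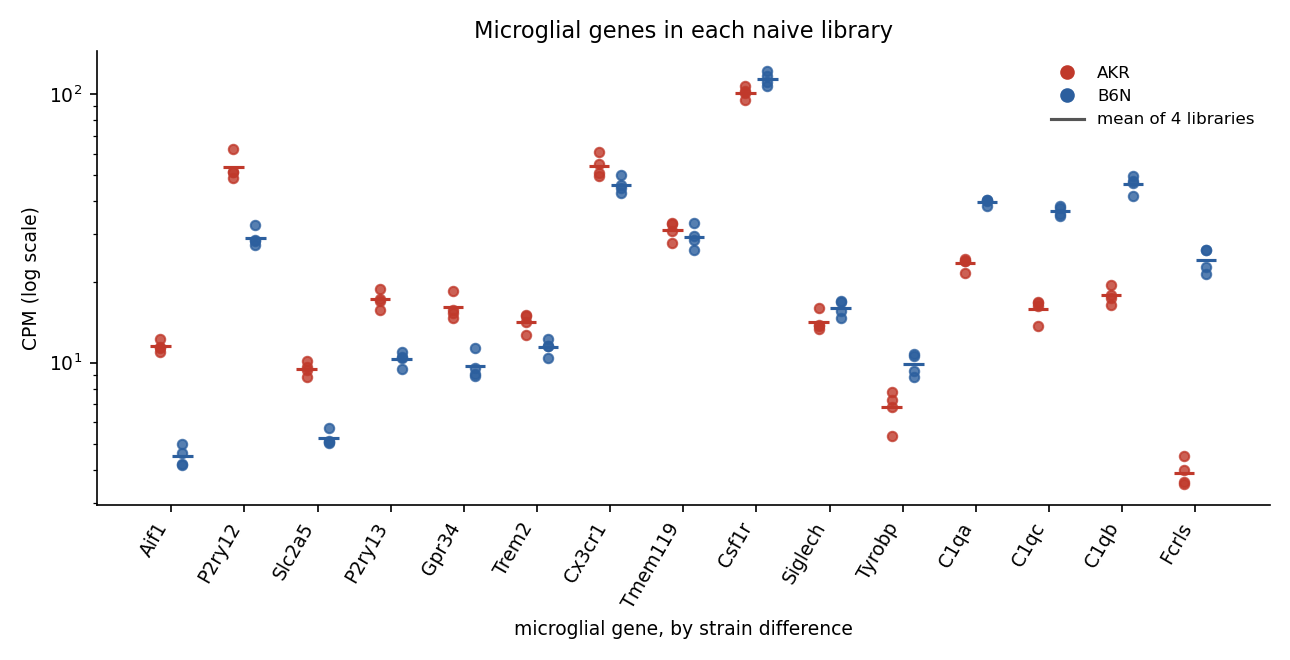
CPM in each library (log scale) for microglial and C1q genes, ordered by strain difference, with AKR in red, B6N in blue and a line at the mean of each 4 libraries. Aif1 and P2ry12 sit higher in AKR and Fcrls and the C1q genes higher in B6N, while Tmem119 and Siglech overlap.

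Antigen presentation genes were lower in AKR for 13 of 21 members and higher for 3, or for 1 without AKR library 4. Over all genes 19.5% were called lower and 18.3% higher. B2m, the light chain of class I molecules, stood at 42.0 to 46.4 CPM in AKR and 56.5 to 60.6 CPM in B6N, a difference of -0.42 (SE 0.044, adjusted p = 8.59e-07). The class II genes H2-Ab1, H2-Eb1 and H2-Aa differed by -1.62, -1.17 and -1.03 from levels under 3 CPM. The class I genes H2-D1 (-2.45, 26.9% shared) and H2-K1 (-1.95, 22.8%) are related genes that differ in sequence between strains. Reads were placed on the C57BL/6 genome. How many AKR reads were lost in these genes was not tested. Among the 10 members sharing at most 5%, 5 were lower and 1 higher. Of 5 erythroid genes, 4 were called lower in AKR and none higher (19.5% and 18.3% of all genes). Hba-a1, a haemoglobin gene, was not called (-0.30) and overlapped between strains. The summed level of the 5 was 18.9 to 33.2 CPM in AKR against 47.6 to 55.5 CPM in B6N, with shared stretches in all 5. Hba-a2 (-5.86, 92.6% shared) and Hbb-bt (-3.35, 59.4%) had the largest differences of the 5. Loss of AKR reads was not tested here either, nor was the part of these genes in any other difference.

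Among astrocyte markers 9 of 20 were called lower and 4 higher, against 19.5% and 18.3% of all genes, so the share called higher was near that over all genes. Kcnj16, a potassium channel subunit that pairs with Kcnj10, stood at 3.25, 3.26, 2.96 and 3.2 CPM in AKR and at 27.7, 30.1, 27.4 and 31.2 CPM in B6N, a difference of -3.19 (SE 0.078, adjusted p = 2.39e-15). Its partner Kcnj10 ran the other way, at 208.3 to 251.3 CPM in AKR and 162.3 to 205.9 CPM in B6N, a difference of 0.33 (SE 0.068). Etnppl, an enzyme of phosphoethanolamine breakdown, differed by -3.05 (SE 0.086). The neurotensin receptor gene Ntsr2 (-0.50) and the glutamate transporter gene Slc1a2 (-0.22) were lower, and Sox9 (0.26) and Gfap (0.19) higher.

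Of 14 endothelial genes 3 were called higher (21.4%) and 5 lower (35.7%), and of 12 oligodendrocyte precursor genes 3 (25%) and 4 (33.3%), against 18.3% and 19.5% of all genes. Mfsd2a, which carries lipids across the blood-brain barrier, stood at 30.5 to 34.6 CPM in AKR and 45.7 to 59.1 CPM in B6N (-0.69, SE 0.065), while the endothelial transporter Slco1a4 (0.52, 5.03% shared) and Itm2a (0.69) were higher. Of 9 pericyte and smooth muscle genes 3 were called higher and 4 lower, again against 18.3% and 19.5% of all genes. The pericyte receptor Pdgfrb was at 0.54 and the smooth muscle actin gene Acta2 at -0.81. Acta2 overlapped between strains, at 22.5 to 25.5 CPM in B6N. AKR library 3 stood at 22.6 CPM and the other AKR libraries at 10.7 to 11 CPM. Tnr, a matrix protein of oligodendrocyte precursors, differed by -0.32 and Gpr17, a receptor of the same cells, by -0.34. Of 18 inhibitory neuron genes 7 were called higher and 3 lower (18.3% and 19.5% of all genes), or 4 and 1 of the 11 that share at most 5%. Adarb2, a marker of caudally derived interneurons, was at 0.86 (SE 0.052). Markers of VIP (vasoactive intestinal peptide) interneurons were mostly not called. Of 10 sharing at most 5%, 3 were called lower, Vip (-0.24), Htr3a (-0.88) and Crh (-0.41), and 1 higher, Npas1 (0.60). Over all genes 19.5% were called lower and 18.3% higher, and the median of these 10 was -0.08.

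Of 44 potassium channel genes, 15 were called lower (34.1%) and 10 higher (22.7%), the latter near the 18.3% of all genes, against 19.5% of all genes called lower. Kcna3, the delayed rectifier Kv1.3, stood at 7.04, 7.65, 7.58 and 8.33 CPM in AKR and at 14.8, 13.8, 15.6 and 15.3 CPM in B6N, a difference of -0.95 (SE 0.074, adjusted p = 2.03e-08). Kcnf1, a silent subunit that forms no channel alone, differed by -0.58 (SE 0.051) and Kcnj9 (GIRK3, opened by G-protein-coupled receptors) by -0.40 (SE 0.034). Kcnc1 (Kv3.1, of fast-spiking cells) differed by 0.20, and Kcnh1 by 0.20. The strains did not overlap for Kcna3, Kcnf1 or Kcnj9.

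Among 30 ionotropic glutamate receptor subunits and partners, 7 were higher (23.3%) and 8 lower (26.7%), not far from the 18.3% and 19.5% of all genes. Grin2b, the NMDA receptor subunit that prevails early in life, stood at 312.4, 301.5, 332.2 and 306.8 CPM in AKR and at 535.2, 493.8, 541.5 and 519.4 CPM in B6N, without overlap, a difference of -0.74 (SE 0.039, adjusted p = 1.1e-10). Shisa7, an auxiliary subunit, differed by -0.49 (SE 0.049), the AMPA receptor subunit Gria1 by -0.36, the kainate receptor subunit Grik5 by 0.18 and the auxiliary Cacng7 by 0.20. In receptors for monoamines, the serotonin receptor genes Htr1a (0.56), Htr3a (-0.88) and Htr5b (-1.14) differed in both directions. Peptide genes included Grp (-0.78), Adcyap1 (-0.32) and Igfbp5 (0.35), and peptide receptor genes Npy2r (-0.84), Oprk1 (-0.82), Sstr3 (-0.59) and Oxtr (-0.42). Most members of both lists were not called. Among members sharing at most 5%, 1 of 15 peptide genes was called higher and 5 lower. For peptide receptor genes it was 2 of 17 higher and 5 lower, against 18.3% and 19.5% of all genes.

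**Figure D4:**
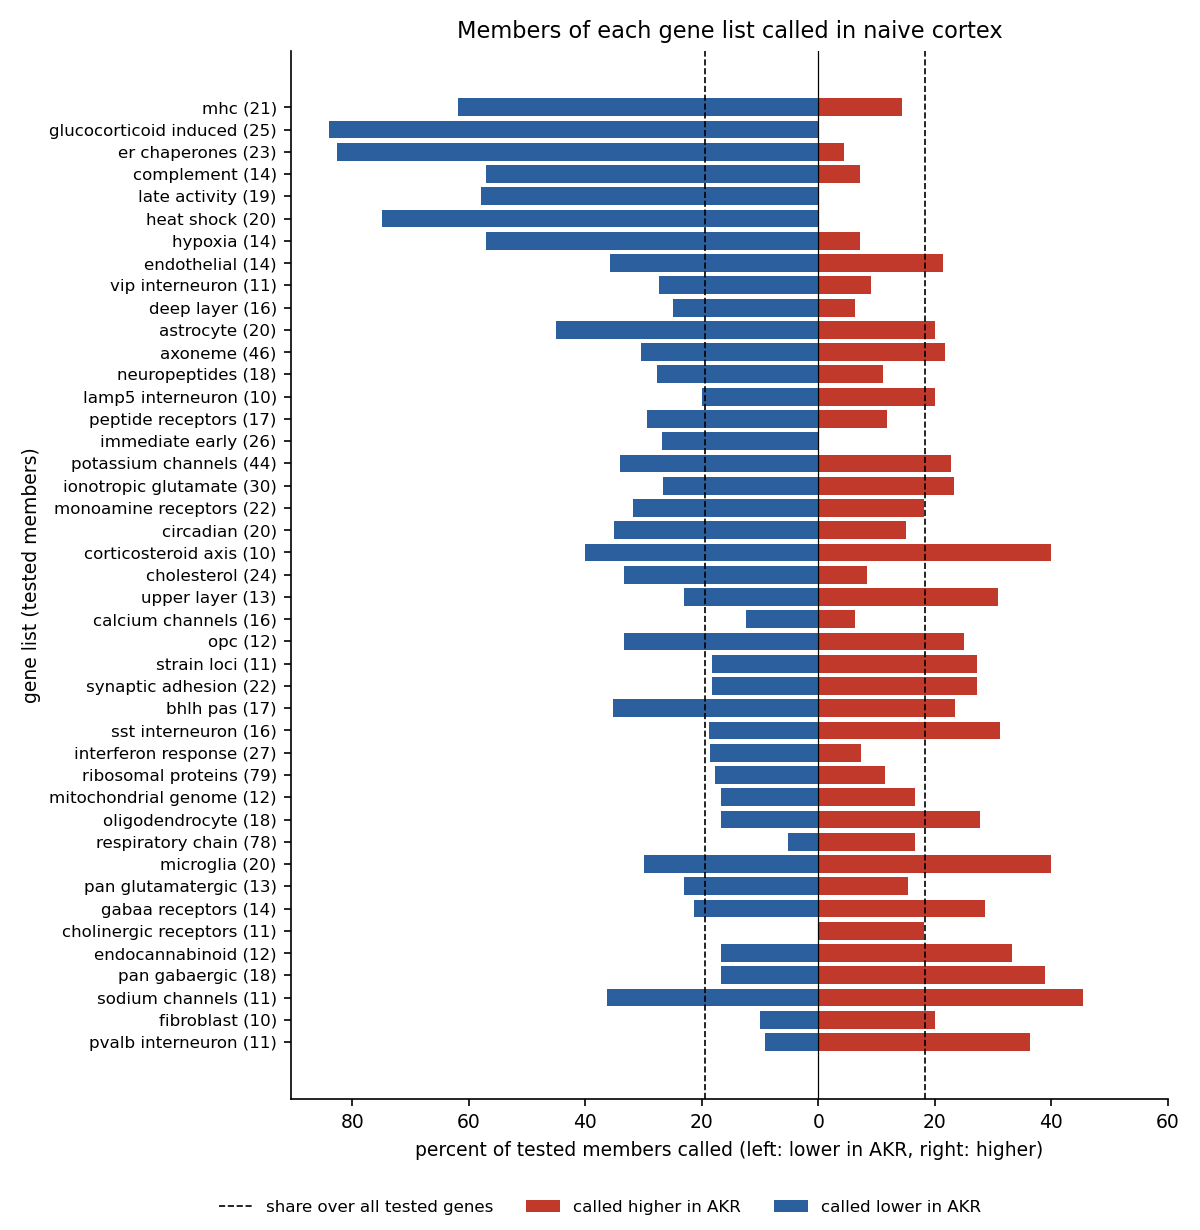
Percent of the tested members of each gene list called lower (blue, to the left) and higher (red, to the right) in AKR, ordered by median difference, for lists with at least 10 tested members (number in brackets), with dashed lines at the shares over all tested genes. The ER chaperone, glucocorticoid and heat shock lists extend farthest to the left, with 19 of 23, 21 of 25 and 15 of 20 members called lower.

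Arnt2, a partner of neuronal bHLH-PAS transcription factors and the gene the series is titled for, stood at 722.0, 701.9, 690.7 and 684.0 CPM in AKR and at 435.0, 434.7, 440.7 and 433.2 CPM in B6N. The groups were far apart beside their spread, and the difference was 0.68 (SE 0.031, adjusted p = 1.69e-11). Its family held 4 genes called higher and 6 lower of 17, against 18.3% and 19.5% of all genes. Npas3 (0.67) and Npas1 (0.60) were higher. Of the 15 members sharing at most 5%, 3 were called higher and 6 lower, with a median of -0.03. Sst, the somatostatin peptide gene, was at 153.5 to 170.5 CPM in AKR and 150.7 to 158.8 CPM in B6N (0.08, adjusted p = 0.1). It was called higher without AKR library 3 (0.11) and under library size scaling (0.10). Nrxn3 was not called (0.02), and Cacna1c, a subunit of L-type calcium channels, differed by -0.26 (adjusted p = 0.000192).

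Other genes at which inbred strains are known to differ included Soat1 (-0.73), which esterifies cholesterol, and the hair cell cadherin gene Cdh23 (0.87). The photoreceptor polarity gene Crb1 differed by 1.11 (0.89 and not called without B6N library 4). Its low levels overlapped between strains, at 0.571 to 0.846 CPM in AKR and 0.171 to 0.628 CPM in B6N. Cyfip2 (0.04) and Gabra2 (0.01) were not called. On chromosome 17, Glo1, which detoxifies methylglyoxal, differed by 0.92 with 13.6% of it shared. Its neighbours Dnah8 (an axonemal dynein), Glp1r (the GLP-1 receptor, at 0.135 to 1.5 CPM) and Umodl1 differed by 3.16, 2.15 and 0.93. These 4 genes formed a run of neighbouring genes called higher, between positions 30584936 and 31010710 of GRCm38. Dnah8 stood at 6.3, 6.17, 7.0 and 5.79 CPM in AKR and at 0.786, 0.852, 0.741 and 0.429 CPM in B6N, without overlap. The second glyoxalase, Hagh (-0.01), was not called.

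Other runs lay on chromosome 1, with the muscle genes Tnni1 (-3.72) and Tnnt2 (-5.97) on either side of Lad1 (-0.81), and on chromosome 4, with Bspry (3.08), Hdhd3 (1.89) and Alad (1.66) side by side. Alad, the second enzyme of haem synthesis, stood at 65.8, 69.7, 66.4 and 71.2 CPM in AKR and at 20.8, 21.3, 21.8 and 22.8 CPM in B6N, with a wide gap between the groups. On chromosome 4 the 3 C1q genes, which are adjacent, formed a run called lower. Among protein-coding genes, calls of at least 2-fold were most frequent on chromosomes 17 (6.29%) and 4 (6.07%) and least on chromosome 15 (1.22%), leaving aside the Y chromosome and mitochondrial genome with few genes. By class, 3.11% of protein-coding genes, 9.8% of long noncoding genes and 22.8% of pseudogenes were called at 2-fold or more, and of those pseudogenes 80 were higher and 32 lower in AKR.

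Among protein-coding genes higher in AKR, averaging at least 5 CPM and sharing at most 5%, the largest difference was that of Pla2g4e, which makes precursors of endocannabinoids. It stood at 69.5, 68.1, 71.9 and 71.3 CPM in AKR and 7.82, 10.6, 7.17 and 8.66 CPM in B6N (3.03, SE 0.074). Sytl1 (2.73), the ciliary gene Cfap54 (1.98), Prss22 (1.92), the collagen-binding integrin gene Itga11 (1.88), the ciliary gene Invs (1.64), the O-mannosyltransferase gene Pomt1 (1.58), Pyroxd2 (1.55), Fndc1 (1.49), the kinase gene Stk10 (1.46), the Wnt antagonist gene Frzb (1.33) and P3h4 (1.32) followed. None of these overlapped between strains.

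Among genes lower in AKR within the same limits, Pttg1, which encodes securin, stood at 0.104 to 0.338 CPM in AKR and 15.1 to 18.2 CPM in B6N (-6.19, SE 0.164). Vill (-3.83), the unconventional myosin gene Myo7a (-3.52), Akr1e1 (-2.59), Dcdc2b (-2.41), the metalloprotease gene Adam8 (-2.39), the macrophage gene Mpeg1 (-2.38), Eps8l1 (-2.29) and the centromere chaperone gene Hjurp (-2.24) were lower as well. Hjurp had the highest level of these, at 17.1 to 19.2 CPM in AKR and 82.3 to 89.9 CPM in B6N.

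Among the most counted genes with at least a 1.5-fold difference, beside Arnt2, Grin2b and Hspa5, Scg5, a chaperone of a prohormone convertase, stood at 363.1, 381.0, 353.7 and 349.9 CPM in AKR and 172.3, 181.5, 165.9 and 172.5 CPM in B6N (1.07, SE 0.038). Fam234b (-1.07), Fam171b (-0.76), Fam107a (-0.72), Frrs1l (-0.61), which helps assemble AMPA receptors, and Gcn1l1 (0.72), which senses stalled ribosomes, completed the set with Paqr8 (-0.83), a membrane progestin receptor.

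Whether the strain difference depended on condition was tested as an interaction over all 14 libraries, in which 20291 genes were tested and 5.15% were called. For 732 genes (3.61%) the difference was lower in naive libraries and for 312 (1.54%) higher, or for 207 without B6N OFL library 2. Naive and OFL libraries share no sample, but levels differed between the sets by more than strain: Grin2b was at 302.2 to 540.8 CPM over the naive libraries and 1137.7 to 1564.5 CPM over the OFL libraries in the joint fit. Conditioning and any other difference between the sets cannot be told apart. Of 804 genes with a naive difference of at least 2-fold, 499 (62.1%) were called in the same direction after OFL, against 16.3% of all genes called there in either direction, and 3 in the opposite direction. Of 5850 genes called under 2-fold, 1735 were called in the same direction and 70 in the opposite.

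Of the 23 ER genes, 15 had a lower difference in naive libraries and none a higher one (3.61% and 1.54% of all genes), and the list's median difference was 0.03 after OFL. Hspa5 stood at 231.7, 316.4 and 230.4 CPM in AKR and 224.4, 262.7 and 275.8 CPM in B6N after OFL, where the groups overlapped, and its interaction was -0.86 (adjusted p = 0.000135). Pdia4 had an interaction of -0.77 (adjusted p = 0.000831), with 40.9 to 54.0 CPM in AKR and 47.0 to 53.2 CPM in B6N after OFL. Of the 25 glucocorticoid-induced genes, 10 had a lower difference in naive libraries and none a higher one, and the list's median was -0.10 after OFL.

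Tsc22d3 stood at 94.6, 108.1 and 87.3 CPM in AKR and 88.1, 102.7 and 107.2 CPM in B6N after OFL, between the naive levels of the strains (interaction -1.11, adjusted p = 6.45e-09). Fkbp5 stood at 28.4 to 31.8 CPM in AKR and 33.1 to 35.3 CPM in B6N after OFL, both near the naive AKR level (interaction -0.95, adjusted p = 9.75e-06). Plin4 was higher in AKR after OFL (0.56, adjusted p = 0.0114), with 24.9, 24.7 and 18.5 CPM in AKR and 13.2, 15.1 and 18.0 CPM in B6N (interaction -2.26, adjusted p = 2.4e-08). So was Per2 (0.31, adjusted p = 0.000283), at 103.4, 115.6 and 110.3 CPM in AKR and 88.7, 93.0 and 83.4 CPM in B6N (interaction -0.66, adjusted p = 2.47e-06).

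For Kcna3 the strains overlapped after OFL, at 18.5 to 19.4 CPM in AKR and 18.4 to 18.6 CPM in B6N (interaction -0.98, adjusted p = 6.73e-07). Mfsd2a was higher in AKR after OFL (0.42, adjusted p = 0.00227), with 22 to 25.4 CPM in AKR and 16.5 to 18.9 CPM in B6N (interaction -1.11, adjusted p = 3.49e-07). Slc2a1, Homer1, Hsph1 and Fam107a had interactions of -0.58, -0.51, -0.44 and -0.56, and Grin2b, whose difference remained at -0.35 after OFL, of -0.39 (adjusted p = 8.66e-05).

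Fam205c stood at 14.4 to 16.2 CPM in naive B6N and at 0.389 to 0.634 CPM in naive AKR, but at no more than 0.519 CPM in all 6 OFL libraries of both strains. Its interaction was -6.27 (adjusted p = 2.96e-05). By contrast the interaction was not called for Arnt2 (-0.11, adjusted p = 0.229), Alad (0.09), Scg5 (0.03), Kcnj16 (-0.03), Etnppl (-0.22), Pttg1 (0.28) or C1qb (-0.21), whose differences after OFL were 0.79, 1.57, 1.03, -3.16, -2.83, -6.47 and -1.17.

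**Figure D5:**
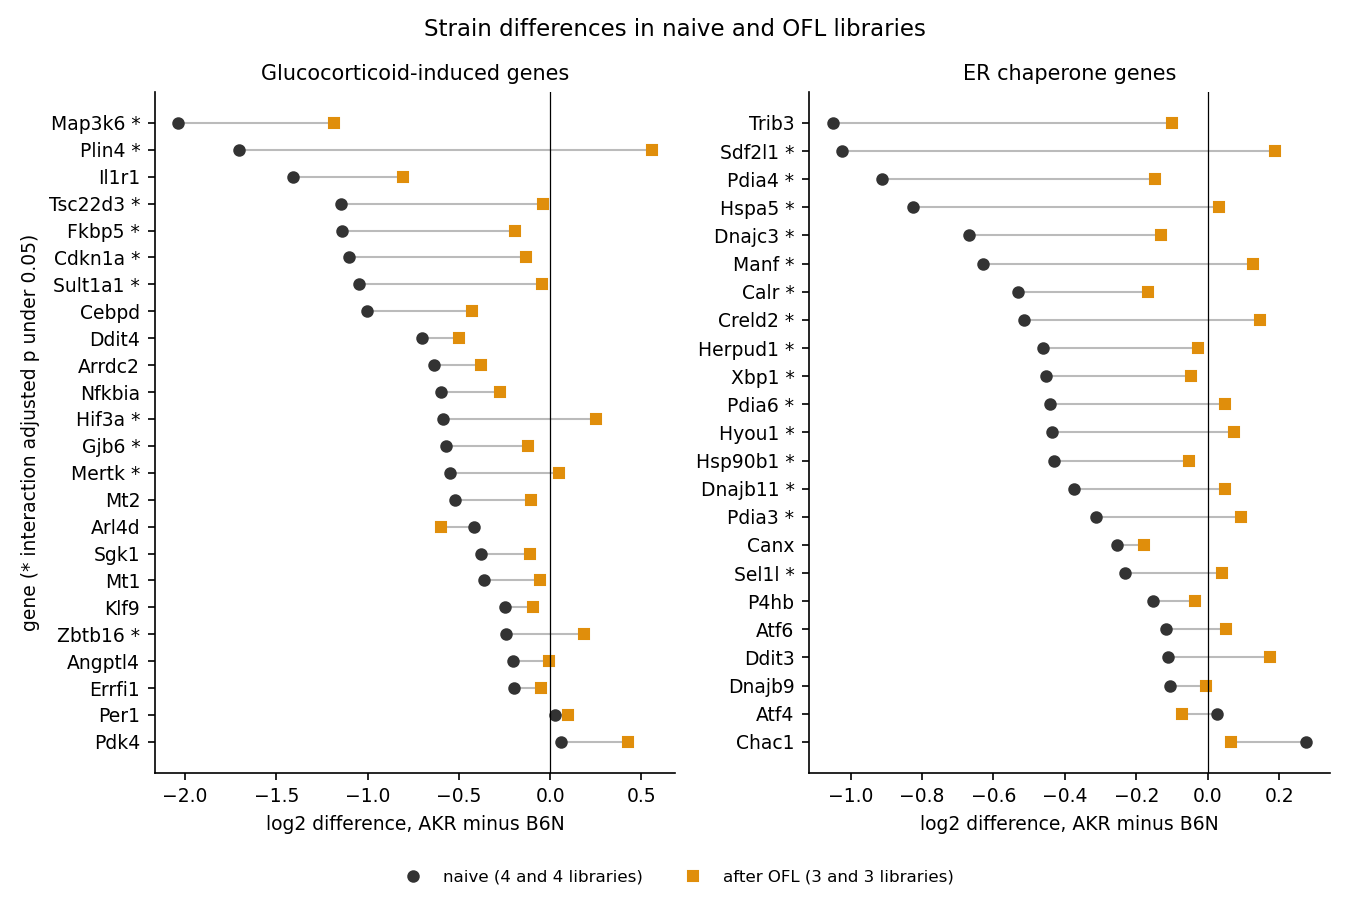
Log2 difference (AKR minus B6N, horizontal axis) of each glucocorticoid-induced gene (left, Lcn2 left out for its scale) and each ER chaperone gene (right) in naive libraries (dark circles) and after OFL (orange squares), with an asterisk where the interaction had an adjusted p under 0.05. The naive points lie to the left of 0 for most genes and the OFL points nearer to 0, with asterisks on 15 of 23 ER genes and 10 of 25 glucocorticoid-induced genes.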

How the data were processed

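RNA-seq of anterior cingulate cortex was deposited as gene counts, with one table for the 8 naive and another for the 6 OFL libraries. Per the labels' protocols, libraries were made from total RNA with the TruSeq RNA kit v2. Per the submitters' processing notes, tools named without roles are TopHat2 2.1.1 and cutadapt 2.7, besides HTSeq, edgeR and CASAVA, the build is GRCm38, and the authors' deposited counts are raw reads per gene, with no normalization. Their annotation release, counting strand and parameters are not given in the sources used here. Of 53465 identifiers, 53360 were named with GENCODE vM21 and 105 were not. Deposited CPM values were not used.

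Counts of the 8 naive libraries were filtered with filterByExpr, scaled by TMM (factors 0.9841 to 1.015) and tested with edgeR 4.0.16 (glmQLFit and glmQLFTest, two-sided, limma 3.58.1, R 4.3.3), with Benjamini-Hochberg adjustment over all genes tested. In the interaction all 14 libraries entered a single fit by group. CPM values in the text use TMM-scaled library sizes. On simulated data of the same depth, 98% of 1.5-fold and 100% of 2-fold naive differences were recovered, with 7.48% of calls false. For the interaction 78% and 94% were recovered, with 8.99% false. The genes changed, 100 per fold, were drawn only from well-counted genes, and all others were left equal. These rates therefore do not cover genes of low count, smaller differences or data with as many differences as here. No pair of libraries agreed within sampling noise. Alternatives were DESeq2 1.42.0, other scaling and filters, genes with at most 5% of their 31-base stretches in common with another gene (a measure that ignores strand and so includes exons overlapping on the other strand), a joint fit, a replicate block and leaving out each library. Tables and figures were made with Python 3.11.15, pandas 2.3.3, numpy 2.4.6 and matplotlib 3.10.9.

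The 52 gene lists and the genes described were chosen with earlier results of these data known, so lists are given by counts and medians, without a test. Named were Arnt2, Sst, Nrxn3, Cacna1c and known strain and glyoxalase loci; the 15 largest differences each way among called protein-coding genes of at least 5 CPM that share at most 5%; the 10 most counted of at least 1.5-fold; up to 6 called members per list; members of lists with a majority called in the same direction; and genes of the longest runs. A run is at least 3 neighbouring tested genes called in the same direction by at least 1.5-fold. Promoters (250 bases before the start) came from the RefSeq table, with chromosome 18 left out. Reads of both strains were placed on the C57BL/6J reference, and loss of AKR reads at variants was not tested. Some genes that the rule names are not reported here.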

Additional observations from a re-analysis of the deposited data

Results flagged for a closer look

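For 59 of the 212 named genes the strain difference itself differed between naive libraries and libraries made after OFL (edgeR interaction, adjusted p under 0.05), which are separate sets that differ in more than conditioning. It was lower in naive for 50 and higher for 9. Over all genes tested, the interaction was called for 5.15%, with 3.61% lower and 1.54% higher in naive. Many named genes were chosen for their naive difference, which is itself a term of the interaction, so these counts are not a fair sample of genes. The 16 whose levels after OFL are described were picked with their values known. The difference in naive minus that after OFL, on the log2 scale, was negative for 15 of these 16. Among chaperones it was -0.855 for Hspa5, -0.765 for Pdia4 and -0.443 for Hsph1. Among genes induced by glucocorticoids it was -1.107 for Tsc22d3, -0.947 for Fkbp5 and -2.261 for Plin4. It was -0.659 for the clock gene Per2, -0.577 for the glucose transporter Slc2a1 and -1.108 for the lipid transporter Mfsd2a. For genes of synapses and channels it was -0.388 for Grin2b, -0.51 for Homer1 and -0.984 for Kcna3. It was -0.563 for Fam107a, -6.268 for Fam205c and -1.107 for Dnah6. The positive value among the 16 was that of Opalin, 1.124.

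A single library stood far from the other 3 of its strain in 24 of the 424 groups of 4 examined, and chance gives about 1 in 20. In AKR library 1, Inhba was at 23.1 CPM (others 18.2 to 18.9), Slc2a1 at 120 (109), Sall1 at 31.2 (28.4 to 28.6) and Siglech at 16 (13.4 to 13.8). The same library had Itm2a at 70.7 CPM (57.2 to 59.5), Fam171b at 242 (234 to 235) and Fam107a at 387 (318 to 327). In AKR library 2, Dnajc3 was at 49.1 CPM (53.4 to 54.2), Cry2 at 206 (188 to 191), H2-D1 at 8.67 (7.04 to 7.16) and Opalin at 8.46 (6.61 to 6.9). In AKR library 3, Otx2 was at 0 CPM (0.0423 to 0.0492), which is 0 against 1 count in each and within counting error, while Il1r1 was at 2.59 (3.11 to 3.15) and Acta2 at 22.6 (10.7 to 11). In AKR library 4, Hsph1 was at 258 CPM (286 to 290).

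In B6N library 3, Sult1a1 was at 18 CPM (16.2 to 16.5), Cebpd at 8.3 (5.26 to 5.6) and Sorcs3 at 81.2 (64.7 to 66.6), while Hsf1 at 59.6 (62.4 to 62.6) and Pyroxd2 at 2.22 (3.99 to 4.28) were low. In B6N library 4, Slc2a5 was at 5.7 CPM (5.02 to 5.09), Umodl1 at 0.686 (0.432 to 0.448) and Cfap54 at 9.9 (9.55 to 9.59). In B6N library 2, Itga11 was at 2.74 CPM (3.6 to 3.77).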

How the results depend on the processing

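No named gene reversed under any alternative. Of 210 named genes in 3336 comparisons with an alternative, 3285 kept direction and call, 45 lost the call and 6 gained it, and the 16 interactions described kept theirs in all 320. Genes called higher and lower numbered 3236 and 3432, 2704 to 3287 and 2944 to 3460 leaving out each library, and 2140 higher with only genes sharing at most 5%, where fewer genes were tested. Calls of at least 2-fold, 345 higher and 466 lower, were 360 to 419 and 466 to 544 leaving out each library, 211 and 282 with a mean of 1 CPM required, 669 and 906 without a count filter, and 153 and 270 with only genes sharing at most 5%; these settings change how many genes are tested. The interaction, 732 lower and 312 higher in naive, gave 500 to 871 and 207 to 402 leaving out each library, and 176 higher with only genes sharing at most 5%. The value of 207 came without B6N OFL replicate 2, and the cause was not tested. With a replicate block, 2989 genes were called higher and 3240 lower, 348 and 460 by at least 2-fold, and the interaction 710 and 303. Chac1, Nr3c1, Nr3c2 and Hlf lost their calls under the block. Same-numbered libraries did not deviate together (correlations of -0.0694, -0.0437, -0.0219 and 0.0367), so the numbers do not pair them. Depth limits genes such as Lcn2, with 4 counts in AKR.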

Other observations

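Among genes of the axoneme, the microtubule core of cilia and flagella, 46 were tested, of which 10 were called higher in AKR (21.7%) and 14 lower (30.4%), against 18.3% and 19.5% of all genes, with 6 of the calls at least 2-fold. The axonemal dynein Dnah6 stood at 6.16, 5.2, 6.75 and 5.83 CPM in AKR and 0.982, 1.43, 1.88 and 1.2 CPM in B6N, with no overlap between strains (2.14, SE 0.159, adjusted p = 1.2e-08 by edgeR). Its difference after OFL was 3.24. The dynein Dnah2 ran the other way, at 3.1 to 4.1 CPM in AKR and 6.28 to 8.65 CPM in B6N (SE 0.125, fold 2.21). Foxj1, a transcription factor that drives the motile cilium program, was at 1.33 to 1.95 CPM in AKR and 3.26 to 4.55 CPM in B6N (SE 0.156, fold 2.2). It is one of 7 ependymal markers, of which 2 passed the count filter.

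Of 78 nuclear genes of the mitochondrial respiratory chain, 13 were called higher and 4 lower (21.8%, against 37.8% of all genes), none of them by 2-fold. Uqcrc1, a core subunit of complex III, had a difference of 0.20 and Ndufc2, a subunit of complex I, of -0.37. Ribosomal protein genes were called higher for 9 of 79 and lower for 14, against 18.3% and 19.5% of all genes. Again none reached 2-fold, though Rps18 fell just short at -0.997 (27.9% shared). Of the 79, 78 share over 5% of their sequence with other genes.

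Among 18 oligodendrocyte genes 5 were called higher (27.8%) and 3 lower (16.7%), not far from the 18.3% and 19.5% of all genes. Opalin, a myelin membrane glycoprotein, stood at 6.89, 8.46, 6.9 and 6.61 CPM in AKR and 4.09, 6.41, 3.61 and 4.5 CPM in B6N (0.64, SE 0.142, adjusted p = 0.00186 by edgeR). The strains did not overlap, and library 2 was the highest in each. After OFL its difference was -0.49 (interaction adjusted p = 0.00624 by edgeR).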
